A study of Homo sapiens with 4 samples.

Results

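The genes described here are 38 components of NF-kappa-B signalling, taken as a list of named genes by their role in the pathway and not by a threshold on measured values. Of these 38, 37 were tested, among 13830 tested genes whose name on the array was a RefSeq symbol or synonym. They were measured on 4 one-colour Agilent whole genome arrays, 2 of naive NB4 cells and 2 of an arsenic trioxide (ATO) resistant NB4 clone, and all 38 had at least 1 probe. NB4 is an established human acute promyelocytic leukemia (APL) cell line that carries the PML-RARA fusion, so both groups share the fusion. The parent cells are labelled naive. The resistant cells are labelled NB4-VM-AsR1 on the arrays and called NB4-EV-AsR1 in the methods, and are taken here as 1 clone, which neither source states. The clone was kept free of ATO for a week before the experiment, each group was 2 separate flasks in RPMI with serum, and the methods state no treatment of the flasks. A difference is therefore one between a clone and its parent line at rest, and a trait of this clone cannot be told apart from a trait of resistance.

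NF-kappa-B is a family of dimeric transcription factors that is held in the cytoplasm by proteins of the IkappaB family. Receptors for TNF, interleukin 1 and Toll-like ligands recruit adaptors and kinases that switch on the IkappaB kinase, which marks IkappaB for destruction and frees the dimer to enter the nucleus. In myeloid cells the freed dimer switches on cytokine, chemokine and survival genes, among them its own inhibitors and TNF, and the RNA of a component says nothing of the phosphorylation and movement of the proteins by which the pathway is mostly run.

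The probes of the members that changed are shown because the measurement rests on them. Only the opening 30 bases of each 60 base probe are given, 5′ to 3′, with the position of the whole probe in hg19 as the array file gives it. TNF had a pair of probes at chr6:31545837-31545896 and chr6:31545164-31545223, and TRAF5 had a single one at chr1:211548188-211548247, all on the plus strand.
TNF probe A_23_P376488: ggggtatcctgggggacccaatgtaggagc
TNF probe A_24_P50759: ggctgaggccaagccctggtatgagcccat
TRAF5 probe A_23_P201731: tggtttgcttaggagttcagagttccttca
The transcript regions under these probes were not analysed here, since no hg19 annotation was used.

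The 250 bases before the start of the gene in RefSeq (GRCh38.p14) were read for 34 of the 38 members. They were searched on both strands for a strict form of the 10 base kappa-B consensus, a site that NF-kappa-B dimers bind. This form was GGGRNNYYCC, where R is A or G, Y is C or T and N is any base. Sites that depart from it were not searched for. The windows of 4 members follow because they belong to the members with the largest falls in RNA level, with any match in capitals.
TNF, chr6:31575315-31575564, plus strand: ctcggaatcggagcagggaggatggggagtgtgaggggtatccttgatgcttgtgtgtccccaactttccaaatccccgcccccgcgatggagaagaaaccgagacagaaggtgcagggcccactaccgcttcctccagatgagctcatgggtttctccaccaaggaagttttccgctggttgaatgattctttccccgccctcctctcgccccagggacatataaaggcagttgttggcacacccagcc
TRAF5, chr1:211326385-211326634, plus strand: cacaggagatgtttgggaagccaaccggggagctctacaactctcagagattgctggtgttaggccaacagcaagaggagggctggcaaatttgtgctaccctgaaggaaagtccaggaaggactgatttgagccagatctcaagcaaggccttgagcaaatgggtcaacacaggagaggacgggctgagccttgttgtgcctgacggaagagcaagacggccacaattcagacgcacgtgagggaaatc
NFKBIZ, chr3:101827740-101827989, plus strand: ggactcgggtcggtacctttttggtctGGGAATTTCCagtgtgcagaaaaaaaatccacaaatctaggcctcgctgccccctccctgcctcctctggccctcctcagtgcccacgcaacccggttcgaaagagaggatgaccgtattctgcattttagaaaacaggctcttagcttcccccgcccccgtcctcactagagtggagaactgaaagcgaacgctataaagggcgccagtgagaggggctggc
TNFAIP3, chr6:137867009-137867258, plus strand: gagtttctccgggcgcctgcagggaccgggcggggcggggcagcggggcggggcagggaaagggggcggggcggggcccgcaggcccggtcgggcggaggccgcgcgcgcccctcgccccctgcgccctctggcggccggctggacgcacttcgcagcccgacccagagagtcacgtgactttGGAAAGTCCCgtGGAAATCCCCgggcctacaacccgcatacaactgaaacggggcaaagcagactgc
Of the 34 windows, 7 (20.6%) held the consensus, against 2614 of 27305 windows of this length over all genes (9.57%). The matches lay 223 bases before the start in NFKBIZ, 55 and 67 bases in TNFAIP3, 49 bases in NFKB1, 81 bases in NFKBIA, 33 bases in TRAF3 and 114 bases in IRAK1, and in REL a pair of overlapping matches on opposite strands lay 46 and 47 bases before it. Of the genes that NF-kappa-B is known to switch on, listed further on, 16 of 44 windows (36.4%) held it. TNF and TRAF5 held none, which says only that this strict form is not in these windows. It does not say that they lack a kappa-B site.

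Levels below are log2 values of the processed signal after subtraction of the array's 75th percentile, so 0 is the 75th percentile of the array, and a change is the resistant mean minus the naive mean on that scale. Levels of different probes are not comparable, because probes differ in how well they bind. A probe was tested where both flasks of 1 line or more had it well above background, and was called changed at an adjusted p-value below 0.05 (limma, Benjamini-Hochberg over 28221 probes) with at least a 2-fold change. Between 27922 and 28244 of 41000 probes per array were well above background. Over probes, the log2 difference had an SD of 0.71 for the naive pair of flasks, 0.37 for the resistant pair and 1.01 to 1.07 for pairs across lines, so the naive pair was the less alike of the same-line pairs. All 4 arrays were on 1 slide with each line in neighbouring positions, so position and line cannot be told apart. The promyelocyte genes MPO and MYB were at the top of the scale in both lines, with the MPO probe saturated on all 4 arrays and the MYB probe on 2, so no change can be read from them. In all, 8 of 9 promyelocyte markers exceeded background on every array, and ELANE and AZU1 were called higher and ANPEP lower in the resistant line.

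Of the 37 members tested, all well above background on all 4 arrays, 2 were called changed between the lines, TNF and TRAF5, and both were lower in the resistant line. This is 5.41% of the members, against 6.29% of all named genes. No member was called higher, against 2.95% of named genes, and the 2 called lower compare with 3.34% of named genes. IRAK2, a kinase of the interleukin 1 receptor complex, was the member that was not tested, being well above background on only 1 array, of the resistant line. Without any test, 7 members differed by at least 2-fold (18.9%, 2 higher and 5 lower) against 13.3% of named genes. The flasks of the lines did not overlap for 21 members (56.8%) against 57.7% of named genes. The median change was 0.04 for members and 0.00 for all named genes, with 19 members above 0 and 18 below.

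The largest fall was in TNF, the cytokine that both activates NF-kappa-B through its receptors and is transcribed in response to it. On its brighter probe TNF stood at 4.09 and 3.31 in the naive flasks and at 0.41 and 0.56 in the resistant flasks. Both resistant flasks lay well under both naive flasks, although the naive flasks were themselves 0.78 apart. TNF was 9.29-fold lower in the resistant line (log2 change -3.22, SE 0.33, 95% interval -4.04 to -2.39, limma adjusted p = 0.00666). The other TNF probe read 0.91 and -0.13 in naive and -2.87 and -2.86 in resistant cells, a change of -3.26 (adjusted p = 0.0115 by limma). The probes thus gave the same call and nearly the same size of fall. In RNA from whole flasks, fewer cells that make a transcript and less transcript per cell cannot be told apart.

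TRAF5, an adaptor of the TNF receptor family that passes the signal of CD40, the lymphotoxin beta receptor and related receptors to both branches of the pathway, fell by a similar amount. Its levels were -0.32 and -0.01 in the naive flasks against -3.43 and -3.27 in the resistant flasks. The flasks of each line lay close together and far from those of the other. TRAF5 was 9.09-fold lower in the resistant line (log2 change -3.18, SE 0.24, 95% interval -3.79 to -2.58, limma adjusted p = 0.00287). Both genes kept their call with any 1 flask left out, TNF with changes of -3.61 to -2.82 and TRAF5 with -3.34 to -3.03. After normexp background correction TNF changed by -3.11 and TRAF5 by -1.99, and neither they nor any other probe on the array was called. The methods' t-test with Benjamini-Hochberg adjustment also called no probe, with adjusted p = 0.238 for TNF and 0.158 for TRAF5.

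Some genes of T cells fell together with TNF and TRAF5. Of 5 T cell markers, all tested, 3 were called lower in the resistant line and 2 were not called. CD3D, a chain of the T cell receptor complex, was at 0.70 and 1.16 in naive cells and not well above background in resistant cells, at least 169-fold lower (limma adjusted p = 0.000755). CD8A fell by 4.47 on the log2 scale and CD3G was at least 2.19-fold lower. The bounds for CD3D and CD3G hold for the processed signal only. CD3E changed by -0.01 on its brighter probe and CD2 by 1.02 in the other direction, the latter with flasks that did not overlap, and neither was called. The linear signals of the 5 markers, each relative to the 75th percentile, summed to 2.15 and 2.81 in the naive flasks and to 0.138 and 0.161 in the resistant flasks. Most of the naive sum was CD3D and most of the rest CD8A, so the sum mainly restates their falls. The part of these genes in the fall of TNF and TRAF5 was not tested. The monocyte markers CD163, FCGR3A and MSR1 were not well above background on any array, and of the others CSF1R changed by 1.23 and CD14 by -0.50, with neither called. The monocyte sum, almost all of it CSF1R, stood at 2.89 and 3.34 in naive and 6.61 and 7.57 in resistant cells.

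**Figure D1:**
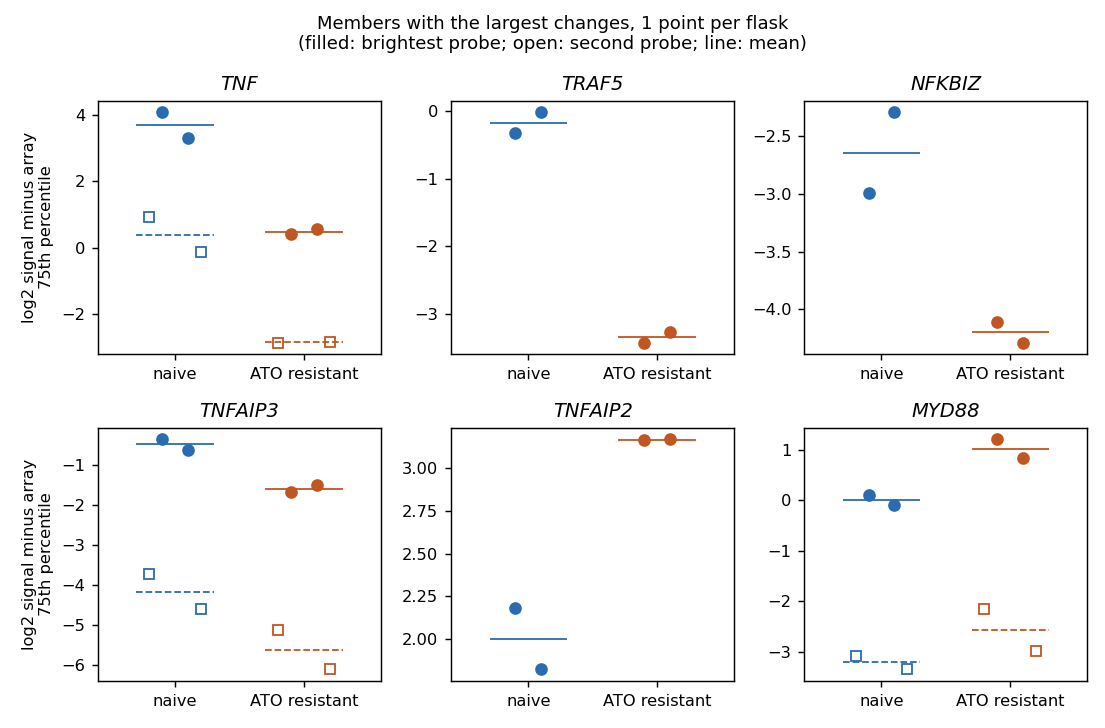
Levels of 6 of the 7 members that differed by at least 2-fold, with 1 point per flask (TRAF4 is not shown). The y axis is log2 signal minus the array's 75th percentile and is scaled for each gene. Filled circles are the brightest probe of a gene, open squares its second probe, and lines the means of the 2 flasks of a line. TNF and TRAF5 are about 3 log2 units lower in both resistant flasks, and the other 4 genes show smaller steps.

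A further 5 members differed by at least 2-fold with flasks that did not overlap, and none was called. For these genes and BCL3 the call came and went with the flasks. When either naive flask is dropped, only the closer resistant pair is left to measure the spread, and calls over the whole array went from 1487 to 3733 or 4536. NFKBIZ encodes IkappaB-zeta, a nuclear member of the inhibitor family that is itself induced by NF-kappa-B and helps to switch on a subset of its targets. It stood at -2.99 and -2.29 in naive and -4.11 and -4.29 in resistant cells, a change of -1.56 (SE 0.31, limma adjusted p = 0.0584). Without naive flask 1 it was called with a change of -1.91, and without naive flask 2 with -1.21, while without resistant flask 1 or 2 the adjusted p was 0.263 or 0.386 (limma).

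TNFAIP3 encodes A20, a ubiquitin editing enzyme that is induced by NF-kappa-B and shuts off signalling from the TNF receptor. Its brighter probe read -0.35 and -0.61 in naive and -1.68 and -1.49 in resistant cells. Both resistant flasks were lower, with a change of -1.11 (SE 0.24, limma adjusted p = 0.0727). The other probe gave -1.45 (adjusted p = 0.18 by limma). Without naive flask 2 the brighter probe was called, at -1.24, but without naive flask 1 it was at -0.97, under 2-fold, and without resistant flask 1 or 2 its adjusted p was 0.564 or 0.476 (limma). TRAF4, an adaptor of the same family as TRAF5, stood at -0.15 and 0.36 in naive and -0.91 and -0.95 in resistant cells, a change of -1.03 (SE 0.27, limma adjusted p = 0.115), and was called without naive flask 1, at -1.28, but was at -0.78 without naive flask 2 and had an adjusted p of 0.57 or 0.708 without resistant flask 1 or 2 (limma).

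The 2 members with the largest positive values were TNFAIP2 and MYD88. TNFAIP2, a TNF-induced gene whose protein takes part in membrane protrusion, read 2.18 and 1.82 in naive cells and 3.16 and 3.17 in resistant cells. The resistant flasks were nearly equal and both above the naive ones, with a change of 1.17 (SE 0.24, limma adjusted p = 0.0664). MYD88, the adaptor that links Toll-like and interleukin 1 receptors to the IRAK kinases, read 0.10 and -0.09 in naive and 1.21 and 0.84 in resistant cells. Both resistant flasks were higher, with a change of 1.02 (SE 0.25, limma adjusted p = 0.104), and the dimmer MYD88 probe gave 0.64. Without naive flask 1 both genes were called, TNFAIP2 at 1.35 and MYD88 at 1.11, and without naive flask 2 both were under 2-fold, at 0.98 and 0.92. Without resistant flask 1 or 2 the adjusted p was 0.454 or 0.527 for TNFAIP2 and 0.677 or 0.464 for MYD88 (limma). BCL10, which joins with MALT1 in the complex that relays antigen receptor and CARD protein signals, came next at 0.72 (limma adjusted p = 0.164), with 0.59 on the other probe.

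**Figure D2:**
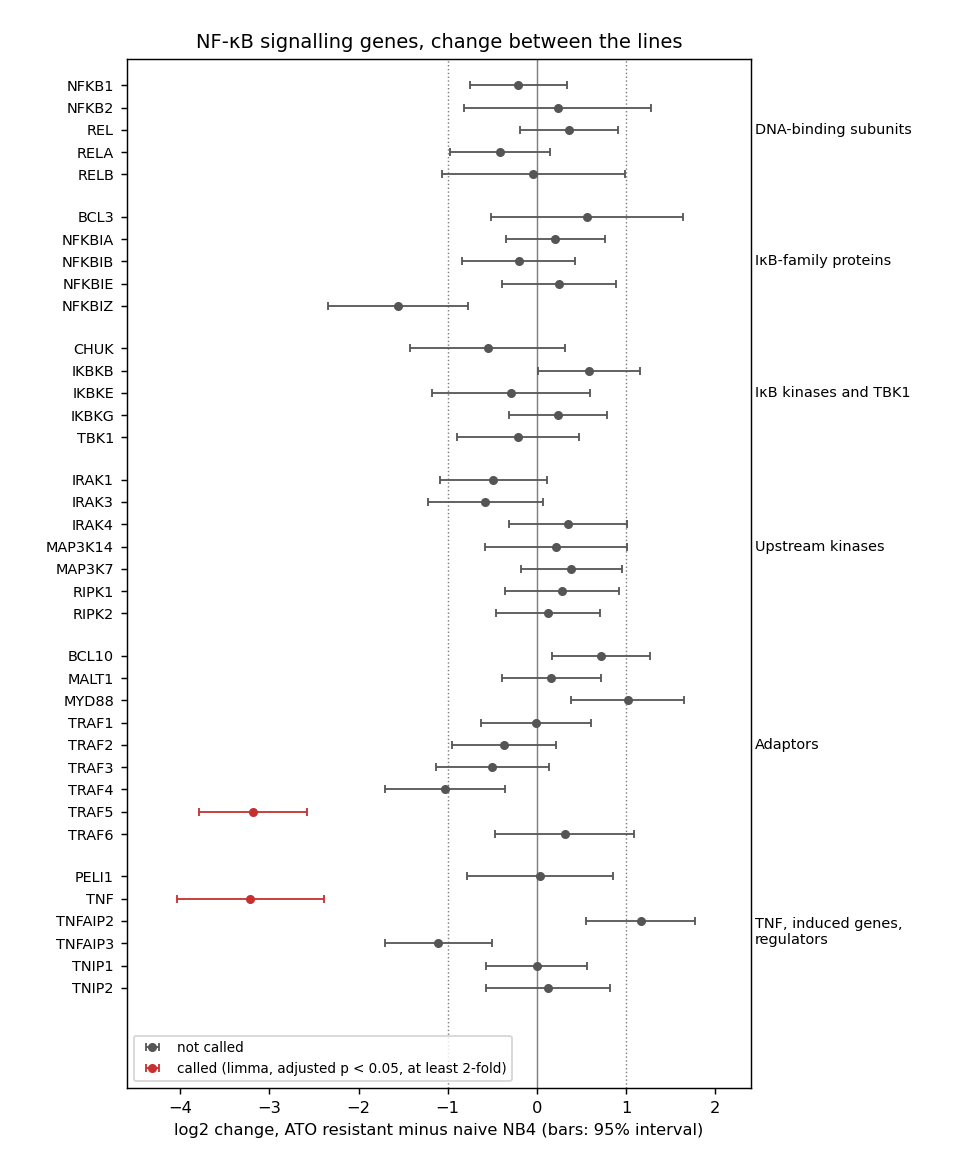
Log2 change of the 37 tested members between the lines (x axis, ATO resistant minus naive, with dotted lines at 2-fold), grouped by role, with points for the estimate and bars for its 95% interval. TNF and TRAF5 (red) were the members called, and the intervals of most of the other members include 0.

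The DNA-binding subunits showed no called change, and the median over the 5 was -0.04. NFKB1, the precursor of p50, stood at 1.97 and 1.88 in naive and 1.72 and 1.72 in resistant cells. Its flasks did not overlap, yet the change was -0.21 with a 95% interval of -0.75 to 0.34 (SE 0.22, limma adjusted p = 0.655). RELA, the p65 subunit that with p50 forms the main activating dimer, read 0.35 and 0.41 in naive and 0.05 and -0.11 in resistant cells. Its change was -0.41 (95% interval -0.97 to 0.15, SE 0.22, limma adjusted p = 0.386), and another RELA probe was too dim to be tested. REL, a subunit prominent in lymphoid and myeloid cells, changed by 0.36 (95% interval -0.19 to 0.91). For these 3 subunits the intervals leave out a 2-fold change in either direction.

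RELB and NFKB2, the partners of the noncanonical branch, varied more between the naive flasks than between the lines. RELB read 2.05 and 3.15 in the naive flasks and 2.46 and 2.67 in the resistant flasks. The resistant values lay between the naive ones, and the change was -0.04 with an interval of -1.07 to 0.99. NFKB2, the precursor of p52, read -3.31 and -2.21 in naive and -2.36 and -2.69 in resistant cells, a change of 0.23 (95% interval -0.81 to 1.28). Both intervals reach to about 2-fold, and a smaller change in either gene was not detectable with these flasks.

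BCL3, a nuclear IkappaB protein that binds p50 and p52 homodimers, shared this pattern. It read -0.29 and 0.88 in naive and 0.73 and 0.98 in resistant cells. Naive flask 1 stood below the other 3 flasks, and the change was 0.56 (95% interval -0.51 to 1.64, limma adjusted p = 0.527). Without naive flask 2 it was 1.15 and called, without naive flask 1 it was -0.02, and without resistant flask 1 or 2 it was 0.69 or 0.44 and not called.

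**Figure D3:**
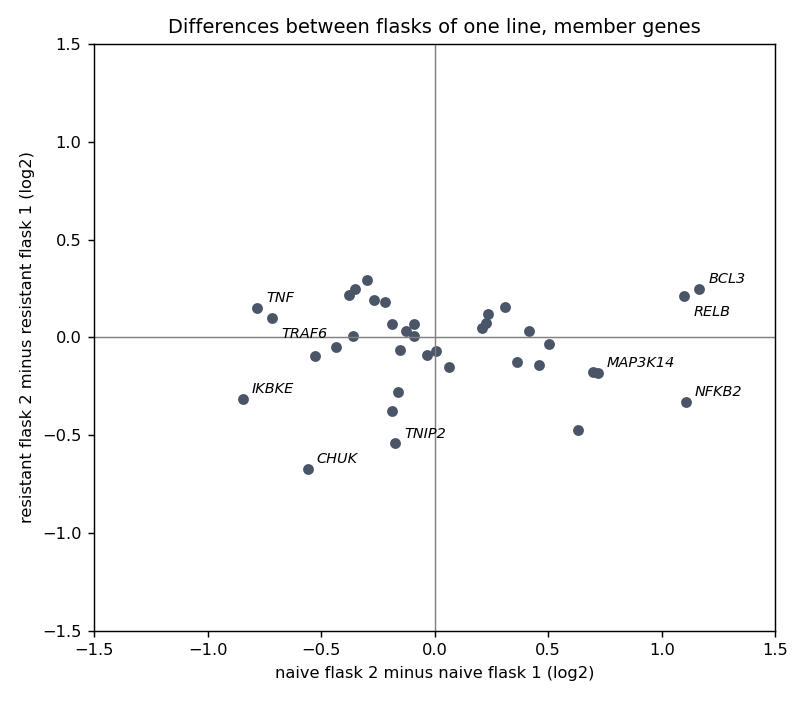
Difference between flasks of the same line for the 37 tested members (x axis, naive flask 2 minus flask 1; y axis, resistant flask 2 minus flask 1; both log2). Points spread more along the x axis than along the y axis. RELB, NFKB2 and BCL3 lie at about 1.1 on the x axis and TNF at -0.78.

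Across the members the median absolute difference between the naive flasks was 0.35, as large as the median absolute change between the lines (0.35), and it was 0.15 between the resistant flasks. The same 3 medians over all named genes were 0.35, 0.34 and 0.16.

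Of the other IkappaB proteins, NFKBIA encodes IkappaB-alpha, the inhibitor that is destroyed and made anew in each round of signalling. It stood at 3.75 and 3.63 in naive and 3.88 and 3.91 in resistant cells. The resistant flasks were both slightly higher, but the change was 0.21 (95% interval -0.34 to 0.76, SE 0.22, limma adjusted p = 0.653), under 2-fold over the whole interval. NFKBIB, a slower inhibitor, changed by -0.20 and by -0.40 and -0.42 on its dimmer probes, and NFKBIE, an inhibitor of REL and RELA dimers, changed by 0.25. None of the 5 IkappaB family genes was called.

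The IkappaB kinase consists of the catalytic subunits encoded by CHUK and IKBKB and the regulatory subunit NEMO, encoded by IKBKG. CHUK, which encodes IKK-alpha, read 0.32 and -0.24 in naive and -0.18 and -0.85 in resistant cells. The flasks of the lines overlapped, and the change was -0.55 (95% interval -1.42 to 0.32, SE 0.34, limma adjusted p = 0.447). IKBKB, which encodes IKK-beta, read 0.89 and 1.12 in naive and 1.56 and 1.63 in resistant cells on its brightest probe. The resistant flasks were higher there, with a change of 0.58 (95% interval 0.01 to 1.16, SE 0.23, limma adjusted p = 0.255). Its probes went different ways, at 0.50 on the second and -0.28 on the dimmest, with none called.

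IKBKG read 0.73 and 0.73 in naive and 1.00 and 0.93 in resistant cells. Its flasks did not overlap, and the change was 0.24 (95% interval -0.31 to 0.79, SE 0.22, limma adjusted p = 0.6). The array file places the only IKBKG probe on the minus strand of chromosome X, whereas RefSeq has the gene on the plus strand. Whether this probe reads IKBKG or another sequence like it was not tested, so its values may not be those of NEMO. The related kinases IKBKE and TBK1, which serve interferon responses as well as NF-kappa-B, changed by -0.29 and -0.21 with overlapping flasks. None of the 5 kinases in this group was called.

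Of the 8 upstream kinases, 7 were tested and none was called, with changes from -0.58 to 0.39 and a median of 0.22. The IRAK kinases act directly below MYD88. IRAK1, which signals, changed by -0.49 (95% interval -1.09 to 0.11), IRAK3, which restrains the others in monocytes, by -0.58 on its brighter and -0.04 on its dimmer probe, and IRAK4, the first kinase of the complex, by 0.35 and 0.49. MAP3K7 (TAK1), which activates the IkappaB kinase, changed by 0.39, and MAP3K14 (NIK), the kinase of the noncanonical branch, by 0.22. RIPK1, the scaffold kinase of the TNF receptor, changed by 0.28, and RIPK2, its counterpart below the NOD receptors, by 0.12 and 0.07.

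Of the 9 adaptors TRAF5 alone was called. TRAF2, which brings RIPK1 and ubiquitin ligases to the TNF receptor, read 1.93 and 1.71 in naive and 1.36 and 1.54 in resistant cells, a change of -0.37 (95% interval -0.96 to 0.22). TRAF3, which restrains the noncanonical branch, changed by -0.50 and -0.25 on its probes, and TRAF6, the ligase used by the IRAK kinases, by 0.31. TRAF1, which is induced by NF-kappa-B, changed by -0.01 on its brighter probe and by 1.07 (SE 0.93) on a dimmer one whose naive flasks were 2.87 apart. MALT1, the protease of the complex with BCL10, changed by 0.16 to 0.45 over 3 probes. Among the ubiquitin regulators, TNIP2, a partner of A20, changed by 0.13, TNIP1, another partner, by less than 0.01 in size on its brighter probe and by -0.30 on the other, and PELI1, a ligase that acts on the IRAK kinases, by 0.04.

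A second list held 57 other genes of the pathway, such as receptors, further adaptors and ubiquitin enzymes, of which 52 were tested and 1 was called (1.92%, against 6.29% of named genes). That gene was TLR2, the Toll-like receptor for bacterial lipoproteins. It was at -0.55 and -0.45 in naive cells and on neither resistant array well above background, at least 62.7-fold lower (limma adjusted p = 0.000509). That bound holds for the processed signal only. After normexp the change of TLR2 was smaller, at -2.45, and was not called. TNF's own receptors, named here after their values were seen, were not called. TNFRSF1A changed by -0.56 (limma adjusted p = 0.253), and TNFRSF1B, at -2.65 and -2.62 in naive and -3.78 and -4.38 in resistant cells, by -1.44 (limma adjusted p = 0.0576). The median change of this list was -0.03. Without naive flask 1 the number called was 7, without naive flask 2 it was 5, and where a probe had to be well above background on all arrays TLR2 dropped out and none was called.

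The third list held 59 genes that NF-kappa-B is known to switch on, apart from the members. Of these, 50 were tested and 11 were called (22%, against 6.29% of named genes), of which 8 were lower and 3 higher in the resistant line, with a median change of -0.32. The list was drawn up with earlier results of these data known, and CD3D, CD8A and CD3G, 3 of the 5 T cell markers given above, fell in the same line as its falling genes, with a part in it that was not tested.

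Chemokines and cytokines were called in both directions. LTB, lymphotoxin beta, stood at 3.14 and 1.91 in naive and -0.19 and 0.01 in resistant cells (log2 change -2.61, limma adjusted p = 0.0365). CCL5, a chemokine for T cells and monocytes, stood at 2.67 and 3.71 in naive and 0.59 and 0.69 in resistant cells (log2 change -2.55, limma adjusted p = 0.0264). In both genes the resistant flasks lay below the naive ones by more than the 1.23 and 1.05 that parted the naive flasks. After quantile normalization neither gene was called (limma adjusted p = 0.0612 for LTB and 0.0561 for CCL5). Both calls were also lost with no filter on dim probes (limma adjusted p = 0.0842 for LTB and 0.0657 for CCL5). LTB was not called by the methods' t-test unadjusted either. CCL20, the ligand of CCR6, changed by -1.67, and its call was lost with no filter on dim probes. CXCL10, an interferon-induced chemokine that was not above background in resistant cells, was at least 2.03-fold lower, though its change was 0.09 after normexp. IL23A, the p19 subunit of interleukin 23, went the other way, at -1.86 and -1.22 in naive and 1.01 and 0.98 in resistant cells (log2 change 2.54, limma adjusted p = 0.0104). CCL4, at -4.95 and -4.37 in naive and -3.13 and -3.16 in resistant cells, rose by 1.51 (limma adjusted p = 0.0477). That call was close to the threshold. It was lost after normexp (0.76), with no filter on dim probes, with the filter on every array and with an intensity trend. The interleukin 1 receptor antagonist IL1RN rose by 1.21 on its brighter probe, but its other probe changed by -0.52, and the mean over both, 0.35, was not called (limma adjusted p = 0.536).

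The called targets outside the cytokines were lower in the resistant line. EGR1, an immediate early transcription factor, changed by -2.75, MMP9, the gelatinase of neutrophil granules, by -2.01, PSMB9, a subunit of the immunoproteasome, by -1.70, and CCND1, cyclin D1, by -1.58 (limma adjusted p from 0.009 to 0.0447). The probes of CCND1 differed in call. A dimmer probe changed by -1.10 and was not called (limma adjusted p = 0.122). The dimmest, not above background in resistant cells, was called and at least 2.93-fold lower in the processed signal. EGR1 stood at 1.51 and 2.93 in naive and -0.56 and -0.49 in resistant cells, so its naive flasks lay far apart. Neither EGR1 nor PSMB9 was called after quantile or scale normalization or with no filter on dim probes. CXCL10, CCL4 and IL1RN were named after their values were seen. The target count was sensitive to the flasks, being 19 without naive flask 1, 20 without naive flask 2 and 1 without either of the resistant flasks, and it was 6 after quantile normalization, 4 with no filter on dim probes and 0 after normexp. The 8 other targets on the array, among them the inducible genes PTGS2, CSF2 and IL1A, were too dim to be tested.

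**Figure D4:**
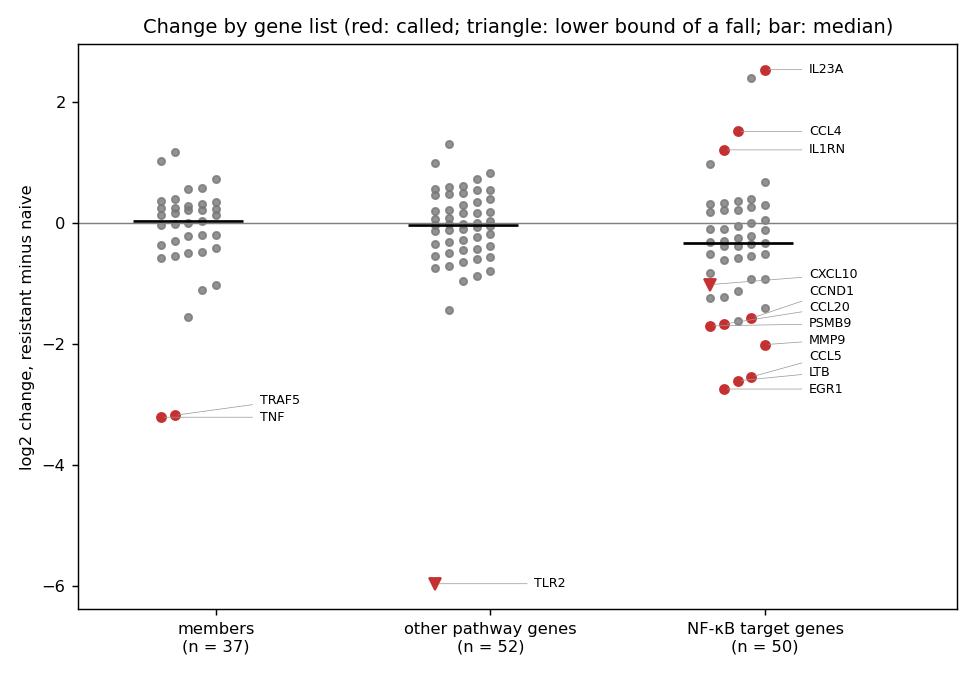
Log2 change between the lines for each tested gene of the members, of the other pathway genes and of the NF-kappa-B target genes (y axis, ATO resistant minus naive). Red symbols are called genes, triangles are lower bounds of a fall where the gene was not above background in resistant cells, grey points were not called, and black bars are medians. TNF and TRAF5 are the called members, 1 pathway gene was called, and 8 of the 11 called targets lie below 0.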

How the data were processed

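RNA of 2 flasks of naive NB4 and 2 flasks of ATO resistant NB4 was hybridized by the authors to 1 slide of 4 Agilent 4x44k arrays, and the images were extracted with Feature Extraction 10.5.1.1. The deposited scanner files hold the processed signal, a background-subtracted intensity on a linear scale in which low spots carry a surrogate, for 45015 spots and 41000 probes. The deposited series table holds log2 values after a 75th percentile shift by the authors in GeneSpring GX 11, and served as an alternative. The number of arrays limits the precision.

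From the intensities, log2 values were taken in R 4.3.3 without control spots and outlier spots, spots of a probe were averaged and each array's 75th percentile was subtracted. The lines were set against each other in limma 3.58.1 (lmFit, eBayes). The fit was first run on simulated data with the same spread in both lines, unlike these flasks. That run was a check of the steps and not of how well the model suits these data. With 2 flasks against 2 an exact two-sided permutation test cannot go below p = 0.333, so the tests rest on limma's spread pooled over probes. A gene was represented by its tested probe of highest mean over all 4 arrays. Of the 55 member probes, 50 matched a RefSeq accession of GRCh38.p14, all under the same symbol, and 53 were tested. Among the 13 members with more than 1 tested probe none differed in call and 2 (IKBKB and TRAF1) differed in sign. Where neither array of a line had the probe well above background, the fold is a lower bound set by the dimmest probe well above background on each array. All members may be named. Full values are given for members called, for the 3 highest and 3 lowest changes and for NFKB1, RELA, NFKBIA, CHUK, IKBKB and IKBKG, and other listed genes are named where called, up to 8 by size. The members and lists were chosen with earlier results of these data known. Promoter windows came from RefSeq and probe bases from the array files. The alternatives were other background corrections, normalizations, filters, tests and thresholds, the replicate block, and each flask left out in turn.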

Additional observations from a re-analysis of the deposited data

How the results depend on the processing

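TNF and TRAF5 were called under every alternative other than normexp and the adjusted t-test. With normexp background correction (offset 50) no probe, member, target or other pathway gene was called, with 929 probes at an unadjusted p below 0.05 (limma) and a median change of all probes of 0.13 against -0.02 in the analysis as reported. The methods' t-test with Benjamini-Hochberg adjustment also called 0 in all 4 counts, with 4138 probes below 0.05 unadjusted. The number of members called was 5 after normexp with bright local backgrounds reset (with MYD88, TNFAIP2 and TNFAIP3), 6 by the methods' t-test unadjusted, 5 at an adjusted p below 0.10 and 7 at 2-fold with no test. The number of other pathway genes was 2 after that reset and with an intensity trend, 3 by the unadjusted t-test, at an adjusted p below 0.10 and at 2-fold with no test, and 0 among probes that exceeded background on every array. Targets called numbered 6 after quantile normalization, 4 with no filter, 7 with the filter on every array and 17 at 2-fold with no test. Of all probes, 760 were called under that stricter filter and 3463 at 2-fold with no test, against 1487. Leaving out each flask in turn gave 728 to 4536 probes, 2 to 6 members, 1 to 20 targets and 1 to 7 other pathway genes. The cause of these moves was not tested.

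The replicate numbers gave no pairing beyond the number itself (correlation of deviations 0.12 over 2 pairs). With the replicate block 1375 probes, 2 members, 8 targets and 1 other pathway gene were called, and CCL4, IL1RN and PSMB9 lost their call.

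Some changes close to 0, and that of CXCL10, turned sign. With normexp RELB was 0.00359, TNIP1 0.0197, TNIP2 -0.0523, TRAF1 0.221 and CXCL10 0.0949. With the reset MALT1 was -0.00342, RELB 0.0707, TNIP1 0.0714, TNIP2 -0.000357 and TRAF1 0.0585. Quantile normalization gave 0.0127 for TNIP1 and 0.0281 for TRAF1, scale normalization 0.023 for TRAF1, and the shift to the median 0.00615 for RELB, 0.0448 for TNIP1 and 0.0335 for TRAF1. TRAF1 was 0.528 as the mean over its probes. Leaving out each flask in turn, changes ranged for BCL3 from -0.0178 to 1.15, for IKBKE from -0.715 to 0.131, for MAP3K14 from -0.143 to 0.575, for NFKB2 from -0.318 to 0.786, for PELI1 from -0.276 to 0.355, for RELB from -0.589 to 0.511, for TBK1 from -0.473 to 0.0537, for TNIP1 from -0.104 to 0.104, for TNIP2 from -0.145 to 0.396, for TRAF1 from -0.192 to 0.169, for TRAF6 from -0.0442 to 0.671 and for the median of the members from -0.0529 to 0.0878. Of 777 values of members under the alternatives, 718 kept their direction and side of the threshold. Several alternatives reuse the same log2 changes and most members were never called, so this count is high by construction and is no measure of robustness. A slide block was not run, as there was 1 slide.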
